A study of Homo sapiens with 6 samples.

Results

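The core spliceosome set described here comprises 40 genes for proteins of the U1, U2, U5 and U4/U6 ribonucleoproteins, the Sm ring, the factors that first recognise the branch site and 3′ splice site, and the NTC (the PRPF19 complex). The genes are those of a list of symbols, grouped by the complex their proteins belong to, and all 40 were found among the 60664 Ensembl gene IDs of the count table. The RNA came from HCT-8, an established human line of colorectal cancer cells grown in DMEM with fetal bovine serum, sequenced after transfection with a control plasmid (shNC, 3 libraries) or with a plasmid carrying a short hairpin against PNISR (shPNISR, 3 libraries). PNISR encodes an arginine and serine rich nuclear protein, and the series asks how it bears on splicing. Every library came from the same cell line, and the labels do not say whether libraries of a group were grown as separate cultures, and the p-values given here cover the spread among the libraries alone, and that spread may be technical. The counts are per gene, so splicing itself was not analysed here.

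The spliceosome removes introns from pre-mRNA and is assembled anew on each intron. U1 binds the 5′ splice site, SF1 and the U2AF pair mark the branch site and 3′ splice site, and U2 then takes over the branch site. The U4/U6.U5 tri-snRNP joins, the helicase SNRNP200 unwinds U4 from U6, and the NTC and its partners stabilise the catalytic RNA centre while PRPF8 holds it. The Sm ring is the heptamer of small proteins that encircles U1, U2, U4 and U5 RNAs. These are housekeeping functions needed in every dividing cell.

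Between 15049485 and 17977803 reads were counted in a library, and 16102 genes, with all 40 members among them, passed the filter on low counts. PNISR itself was at 55.3, 50.2 and 62.8 CPM (counts scaled to library size with TMM factors) in the shNC libraries 1 to 3 and fell to 18.5, 20.7 and 27.6 CPM in those of shPNISR (log2 fold change -1.33 ± 0.15 SE, edgeR quasi-likelihood test, Benjamini-Hochberg adjusted p = 8.73e-05). On the first principal component, which held 44.8% of the variance, shNC 2 lay at 0.787, between shNC 1 and 3 at -35.2 and -31.2 and the shPNISR libraries at 16.9 to 24.6. The summed level of 8 colorectal epithelial markers was 4036 to 4467 CPM in shNC and 4337 to 5477 CPM in shPNISR, with KRT20 under 1 CPM. Most of the sum was KRT8 and KRT18, with means of 2239 and 1477 CPM in shNC. Of the 8, CDH17 alone was called, higher with shPNISR (17.6 and 44.1 CPM, log2 fold change 1.32, edgeR adjusted p = 5.74e-05). Of 6 leukocyte markers the sum was 3.53 to 4.86 CPM in shNC and 4.09 to 5.58 CPM in shPNISR, with PTPRC at 0 in all 6 libraries. The 4 endothelial markers summed to at most 1.66 CPM in any library. Of 8 fibroblast markers, VIM alone gave 549.6 to 823 CPM of sums between 566 and 848 CPM, and COL1A2 was at 0 in all 6 libraries. COL1A1 was at 13.7 to 20.3 CPM in shNC and 20.0 to 24.8 CPM in shPNISR. COL3A1 was at 1.07 to 1.94 CPM and PDGFRB at 0.599 to 2.19 CPM over the 6 libraries. In bulk RNA, fewer cells expressing a gene and less RNA per cell cannot be told apart.

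None of the 40 core spliceosome genes was called changed with shPNISR, beside 3.14% of all 16102 tested genes (2.30% higher and 0.832% lower; edgeR quasi-likelihood test with Benjamini-Hochberg adjustment, threshold 0.05). DESeq2 called none of the 40 (4.18% of its tested genes), and neither did limma voom (3.53%). At an unadjusted p under 0.05 in edgeR there were 4 members, PRPF4, SNRPD3, PRPF3 and SF3B1, which is 10.0% of the set beside 17.8% of all tested genes. All 4 were lower, a direction that held 7.79% of all tested genes. No member was higher at that level, beside 9.98% of all tested genes. The 3 control libraries did not overlap the 3 shPNISR libraries for 5 members, SNRPD3, SF3A3, SF3B1, PRPF4 and AQR, all lower in shPNISR (12.5% of the set, beside 9.58% of all tested genes). The opposite arrangement was found for 0 members and for 11.5% of all tested genes.

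In the main fit the intervals of most of these genes were narrow. For 37 of the 40 members the 95% confidence interval of the fold change lay within 1.5-fold in either direction, which held for 54.6% of all tested genes. The exceptions were SNRPD3 and PRPF3, whose intervals reached log2 values of -0.59, and U2AF1, whose interval ran from -3.73 to 1.22. All tested genes reached down to a mean of 0.406 CPM, beside 8.75 CPM for the lowest member. The intervals come from the main fit and make no allowance for GC and length correction, which shifted fitted values as given below. The median log2 fold change of the 40 members was -0.07, beside -0.01 over all tested genes, and 27 members (67.5%) had a fitted value below 0, beside 52.1% of all tested genes. The library shPNISR 3 held the lowest value of its group for 28 of the 40 members, and shNC 2 that of its group for 22. The median deviation of the members from their shNC mean was 0.01, -0.06 and 0.05 (log2) in the 3 controls, and 0.01, 0.03 and -0.17 in the shPNISR libraries 1 to 3. Without shPNISR 3 the members' median was -0.03, with 23 of 40 below 0. Without shNC 3 it was also -0.03, with 24 below 0, and without shNC 2 it was -0.12, with 29 below 0.

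**Figure D1:**
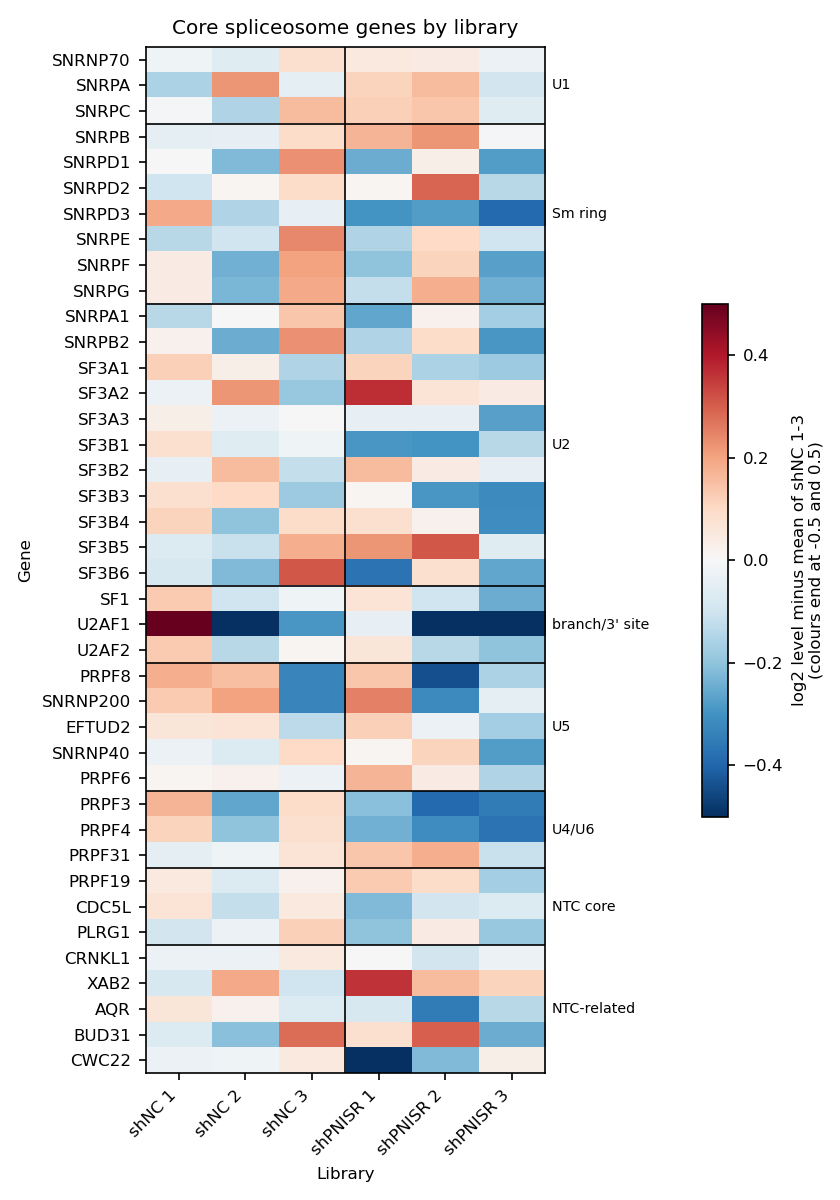
Deviation of each of the 40 members (rows, grouped by subcomplex) from its mean in shNC, on a log2 CPM scale, in each of the 6 libraries (columns). The colours end at -0.5 and 0.5. PRPF3, PRPF4, SNRPD3 and SF3B1 are blue, below the shNC mean, in all 3 shPNISR libraries, and U2AF1 runs past both ends of the scale.

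Promoter sequence, which the choice of members did not use, was searched for short motifs, as a description with no test. For 37 of the 40 members RefSeq (GRCh38.p14) gave a promoter window, taken here as 150 bases before to 30 bases after the transcription start. Because 1 start per gene was used, the presence of a motif depends on the start chosen. Of the windows printed below, those of SNRPD2, U2AF2, SNRPG and PRPF4 lie inside the gene as GENCODE bounds it. The window of SNRPD3 lies inside it but for its first bases (gene start at 24555503). That of SF3B1 lies inside it in part (gene bound at 197435091). An ETS factor core, CCGGAAG on either strand, was present in 18 of the 37 windows (48.6%), in 8.76% of 27305 RefSeq promoters, and in 15.2% of 11749 promoters of genes tested here. The GC box GGGCGG was present in 18 of the 37 (48.6%, beside 62.7% of tested genes' promoters) and CCAAT in 13 of the 37 (35.1%, beside 28%). Of the other two motifs searched, the NRF1 core was in 0 of the 37 (1.91% of tested genes' promoters) and the YY1 core in 1 (2.7%, beside 1.16%). A match of letters is a description and not a bound site. The 3 windows printed first belong to the members with an ETS core that have the highest level per kilobase in shNC. Capitals mark matches to the ETS core, the GC box or the CCAAT box on either strand, and neighbouring GC boxes may overlap. They are SNRPD2 (chr19:45692287-45692466, minus strand), U2AF2 (chr19:55654885-55655064, plus strand) and SNRPG (chr2:70293429-70293608, minus strand).
SNRPD2: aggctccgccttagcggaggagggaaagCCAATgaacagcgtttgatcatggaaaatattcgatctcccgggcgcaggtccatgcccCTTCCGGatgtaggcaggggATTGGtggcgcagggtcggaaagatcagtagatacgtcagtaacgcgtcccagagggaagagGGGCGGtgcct
U2AF2: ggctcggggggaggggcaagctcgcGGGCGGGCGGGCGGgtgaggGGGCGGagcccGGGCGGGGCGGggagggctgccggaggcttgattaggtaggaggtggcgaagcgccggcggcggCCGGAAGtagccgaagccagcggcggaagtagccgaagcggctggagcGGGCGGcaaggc
SNRPG: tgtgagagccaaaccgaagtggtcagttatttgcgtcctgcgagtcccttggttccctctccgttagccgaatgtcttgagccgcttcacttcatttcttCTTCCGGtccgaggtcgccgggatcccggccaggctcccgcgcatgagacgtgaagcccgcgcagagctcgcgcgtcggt

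For comparison, the windows of 3 of the 4 members with the smallest p-values follow: PRPF4 (chr9:113275508-113275687, plus strand), SNRPD3 (chr22:24555500-24555679, plus strand) and SF3B1 (chr2:197434999-197435178, minus strand). None of these holds the string CCGGAAG on either strand, and the capitals in PRPF4 mark a GC box. Shorter or other forms of an ETS site were not searched, so these windows cannot be said to lack one. PRPF3 had no entry.
PRPF4: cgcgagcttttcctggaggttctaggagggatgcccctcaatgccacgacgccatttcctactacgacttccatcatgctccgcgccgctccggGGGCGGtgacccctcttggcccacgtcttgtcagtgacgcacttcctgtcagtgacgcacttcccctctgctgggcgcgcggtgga
SNRPD3: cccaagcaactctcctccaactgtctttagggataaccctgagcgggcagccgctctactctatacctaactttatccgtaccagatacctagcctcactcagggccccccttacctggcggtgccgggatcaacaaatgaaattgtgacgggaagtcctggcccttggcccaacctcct
SF3B1: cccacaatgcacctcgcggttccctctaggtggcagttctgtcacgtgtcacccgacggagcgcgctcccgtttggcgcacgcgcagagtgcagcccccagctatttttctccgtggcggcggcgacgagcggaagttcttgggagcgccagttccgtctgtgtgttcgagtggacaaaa

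Levels within the set spanned a wide range. Per kilobase of the principal GENCODE transcript, SNRPD2 of the Sm ring was highest in shNC at 434 ± 28.9 CPM per kb (mean ± SD, n = 3). U2AF2, the large U2AF subunit, stood at 266 ± 24.6 CPM per kb, SNRPG at 262 ± 37.7, the U1 protein SNRNP70 at 262 ± 13.5 and the SF3b subunit SF3B5 at 259 ± 28.3. The spread of these 4 overlapped, so their order is not resolved. The lowest were the NTC-related AQR at 7.00 ± 0.327 CPM per kb, CWC22 at 7.83 ± 0.235, CRNKL1 at 10.8 ± 0.351 and U2AF1 at 12.8, the last with an SD nearly as large as its mean. The place of U2AF1 is not reliable, because a near-identical gene copy makes its count uncertain, as given below. Some subcomplexes overlapped in level: SNRPD3 of the Sm ring stood at 30.6 ± 3.68 CPM per kb, under the NTC-related BUD31 at 64.8 ± 11.7. Others were apart: the U1 proteins SNRNP70, SNRPA and SNRPC, at 262, 108 and 210.3, lay above every NTC-related protein. They also lay above the U4/U6 proteins PRPF3, PRPF4 and PRPF31, at 31.0, 44.4 and 51.8. The value depends on the transcript chosen: that of SNRPD1 is 4909 bases long and that of SNRPD2 901 bases, so SNRPD1 had 32.7 ± 5.12 CPM per kb beside 160.3 ± 25.1 CPM per gene.

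**Figure D2:**
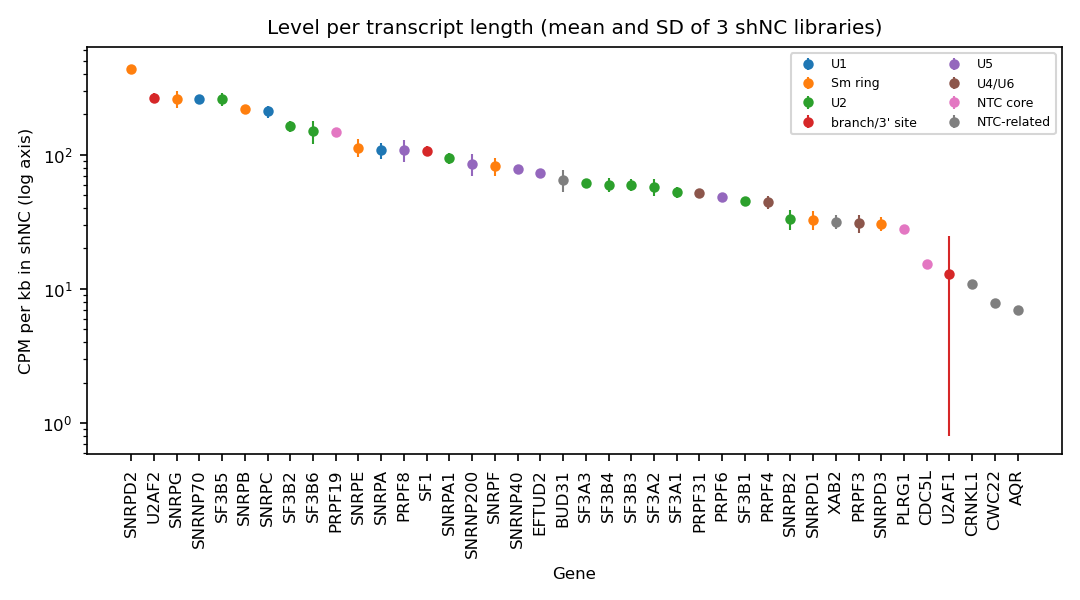
Level of each member in shNC, in CPM per kilobase of its principal transcript on a log axis, with points for the mean and bars for the SD of 3 libraries, coloured by subcomplex. Members range from 7.00 for AQR to 434 for SNRPD2, and U2AF1, whose count is uncertain, has by far the widest bar.

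None of the 3 U1 proteins, which recognise the 5′ splice site, passed the test. SNRNP70, which binds the first stem-loop of U1 RNA, was at 407, 394 and 436 CPM in shNC and 427, 423 and 405 CPM in shPNISR (log2 fold change 0.02 ± 0.11 SE). SNRPA, which binds another stem-loop of U1 RNA, was at 155, 201 and 167 CPM in shNC and 187, 193 and 163 CPM in shPNISR (0.06 ± 0.12). SNRPC, the zinc finger protein of U1, was at 175, 159 and 197 CPM in shNC and 192, 195 and 169 CPM in shPNISR (0.06 ± 0.11). The groups overlapped for all 3 genes, their 95% intervals together ran from -0.20 to 0.30, and the lowest adjusted p was 0.814 (edgeR quasi-likelihood test, Benjamini-Hochberg). Their median log2 fold change was 0.06, and -0.11 once libraries were corrected for GC content and length.

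No Sm ring protein passed the test either, and their fold changes had both signs. SNRPD3 was the member with the lowest fold change among them, at 61.1, 48.4 and 52.3 CPM in shNC and 43.5, 44.2 and 41.0 CPM in shPNISR. All 3 shPNISR libraries lay under all 3 control libraries. The log2 fold change was -0.33 ± 0.12 (SE), with an adjusted p of 0.159 (edgeR quasi-likelihood test, Benjamini-Hochberg). SNRPD1, which pairs with SNRPD2, was at 158, 136 and 186 CPM in shNC and 134, 162 and 131 CPM in shPNISR (-0.17 ± 0.13). SNRPB, which pairs with SNRPD3, was at 242, 245 and 267 CPM in shNC and 283, 293 and 248 CPM in shPNISR (0.13 ± 0.11). The groups overlapped for both, as they did for SNRPD2 (0.06 ± 0.12), SNRPE (-0.06 ± 0.12), SNRPF (-0.12 ± 0.13) and SNRPG (-0.06 ± 0.13). The median of the 7 was -0.06. SNRPD3 (ENSG00000100028) lies at chr22:24555503-24609980 of GRCh38, plus strand, and shares exon bases with GGT1 on its own strand and GUCD1 on the other. GUCD1 was at 123 CPM in shNC and 119.9 in shPNISR (log2 fold change -0.04), and GGT1 averaged 0.378 and 0.930 CPM, with no overlap and a log2 fold change of 1.30 ± 0.47, opposite in sign to SNRPD3 (edgeR quasi-likelihood test, Benjamini-Hochberg adjusted p = 0.149). SNRPN, the neuronal paralogue of SNRPB, was listed at 0 counts in all 6 libraries. It overlaps SNURF in the annotation, and the sources used here do not say how overlapping genes were counted, so the 0 does not show that SNRPN was absent.

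The U2 proteins bind the branch site through the SF3a and SF3b complexes. SF3B1, the large SF3b scaffold that clamps the branch site and is recurrently mutated in blood cancers, was at 312, 282 and 290.1 CPM in shNC and 240.4, 239 and 268 CPM in shPNISR. The groups did not overlap. Its log2 fold change was -0.24 ± 0.11 (SE), adjusted p = 0.234 by edgeR's quasi-likelihood test with Benjamini-Hochberg adjustment, and -0.11 with GC and length correction. SF3A3 was at 232, 224 and 228 CPM in shNC and 222, 222 and 189 CPM in shPNISR (-0.11 ± 0.11), where the groups were apart only narrowly. SF3B3, the WD40 propeller protein next to SF3B1, was at 608, 619 and 509.9 CPM in shNC and 583, 471 and 461 CPM in shPNISR (-0.20 ± 0.12), with overlap. The small SF3b subunit SF3B5 had 0.16 ± 0.12 and SF3A2 of SF3a 0.16 ± 0.13. The groups overlapped for both. SF3B2 had 0.05 ± 0.11, SF3B4 -0.07 ± 0.12 and SF3A1 -0.08 ± 0.12. SF3B6, which contacts the branch-site adenosine, was at 107, 97.6 and 141 CPM in shNC and 87.9, 120.1 and 95.2 CPM in shPNISR (-0.19 ± 0.14). The U2 RNA-binding pair SNRPA1 and SNRPB2 had -0.14 ± 0.12 and -0.12 ± 0.13. The median of the 11 was -0.11, and the smallest adjusted p among them was that of SF3B1.

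SF1 binds the branch site before U2 does, and U2AF2 and U2AF1 bind the polypyrimidine tract and the AG of the 3′ splice site. SF1 was at 359, 307 and 324 CPM in shNC and 346, 306 and 278 CPM in shPNISR (-0.09 ± 0.12), and U2AF2 at 492, 409 and 452 CPM in shNC and 469, 409 and 391 CPM in shPNISR (-0.09 ± 0.12). The groups overlapped for both. U2AF1 stood far under its partner U2AF2 and varied most of the 40 members: reads counted were 461, 62 and 112 in the 3 controls and 151, 61 and 47 in shPNISR, or 25.4, 4.01 and 7.46 CPM and 8.94, 3.78 and 2.88 CPM. The library shNC 1 stood far above the rest, and the log2 fold change of -1.25 ± 0.92 (adjusted p = 0.561, edgeR quasi-likelihood test, Benjamini-Hochberg) became -0.14 without it (adjusted p = 0.969). The median of SF1, U2AF2 and U2AF1 was -0.09, and it was further below 0 with GC and length correction, as given below.

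The count of U2AF1 (ENSG00000160201, chr21:43092956-43107587 of GRCh38, minus strand) is uncertain because the GENCODE annotation holds a near-identical copy, U2AF1L5, on the same chromosome (chr21:6484623-6499261, minus strand). Over the 720 coding bases compared there were 0 mismatches, and of 863 windows of 100 bases in the U2AF1 principal transcript, 834 (96.6%) occur unchanged in a U2AF1L5 transcript. Reads from these windows cannot be assigned to 1 of the copies by sequence, and the sources used here do not say how the authors' counting treated them. U2AF1L5 was at 162, 112 and 147 counts in shNC and 108, 114 and 143 in shPNISR, or 8.66 ± 1.29 CPM and 7.41 ± 1.22 CPM (log2 fold change -0.23 ± 0.19, edgeR adjusted p = 0.580). The first 120 coding bases (GRCh38, GENCODE, 5′ to 3′) are shown as an example of the sequence the pair shares. Capitals would mark bases that differ from U2AF1L5, and there are none.
U2AF1: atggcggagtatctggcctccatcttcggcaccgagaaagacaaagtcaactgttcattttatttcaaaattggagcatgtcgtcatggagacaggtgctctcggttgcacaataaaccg

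None of the 5 U5 proteins, which form the heart of the active spliceosome, passed the test. PRPF8, the scaffold around the catalytic centre, was at 902, 887 and 634 CPM in shNC and 878, 589 and 715 CPM in shPNISR (-0.15 ± 0.16). SNRNP200, the helicase that unwinds U4 from U6, was at 661, 695 and 481 CPM in shNC and 721, 484 and 583 CPM in shPNISR (-0.04 ± 0.16). These 2 genes were low in shNC 3 and in shPNISR 2 and higher in the other libraries of each group, so the groups overlapped broadly. EFTUD2, the U5 GTPase, was at 348, 349 and 306 CPM in shNC and 363, 327 and 296 CPM in shPNISR (-0.03 ± 0.11). The groups overlapped here too. SNRNP40, a WD40 protein of U5, had a log2 fold change of -0.05 ± 0.12 and PRPF6, which bridges U5 and U4/U6, of 0.03 ± 0.11.

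**Figure D3:**
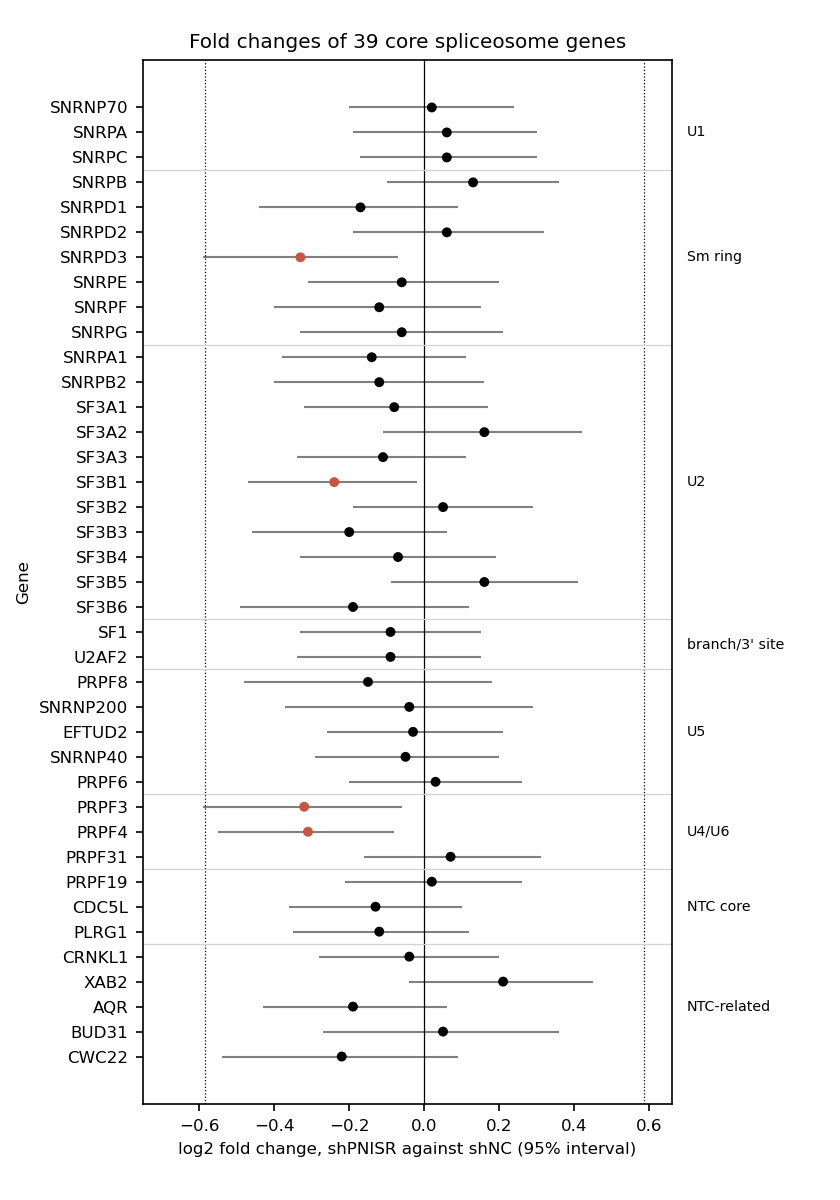
Log2 fold change of shPNISR against shNC for 39 members, with bars for the 95% confidence interval, grouped by subcomplex. U2AF1, whose interval runs from -3.73 to 1.22, is left out, dotted lines mark 1.5-fold, and the red points PRPF4, SNRPD3, PRPF3 and SF3B1 have intervals below 0 before adjustment.

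The U4/U6 proteins had the lowest subcomplex median, -0.31, which rests on 2 of 3 genes. PRPF4 and PRPF3, which bind each other and the U4/U6 RNA duplex, were, with SNRPD3, the members with the smallest p-values. PRPF4 was at 133, 107 and 130.4 CPM in shNC and 105, 99.1 and 95.4 CPM in shPNISR, and the groups did not overlap. Its log2 fold change was -0.31 ± 0.11 (SE), adjusted p = 0.147 by edgeR's quasi-likelihood test with Benjamini-Hochberg adjustment. PRPF3 was at 84.1, 62.4 and 79.8 CPM in shNC and 64.6, 57.2 and 58.9 CPM in shPNISR. The control library shNC 2 lay inside the shPNISR range, and the fold change was -0.32 ± 0.13 (adjusted p = 0.179). PRPF31, a U4 protein mutated in forms of retinitis pigmentosa, was at 106, 108 and 116 CPM in shNC and 121, 124 and 102 CPM in shPNISR (0.07 ± 0.11, adjusted p = 0.771). Its groups overlapped, and its fitted sign in the main fit was opposite to that of PRPF4 and PRPF3. With GC and length correction its fitted value was below 0 as well.

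**Figure D4:**
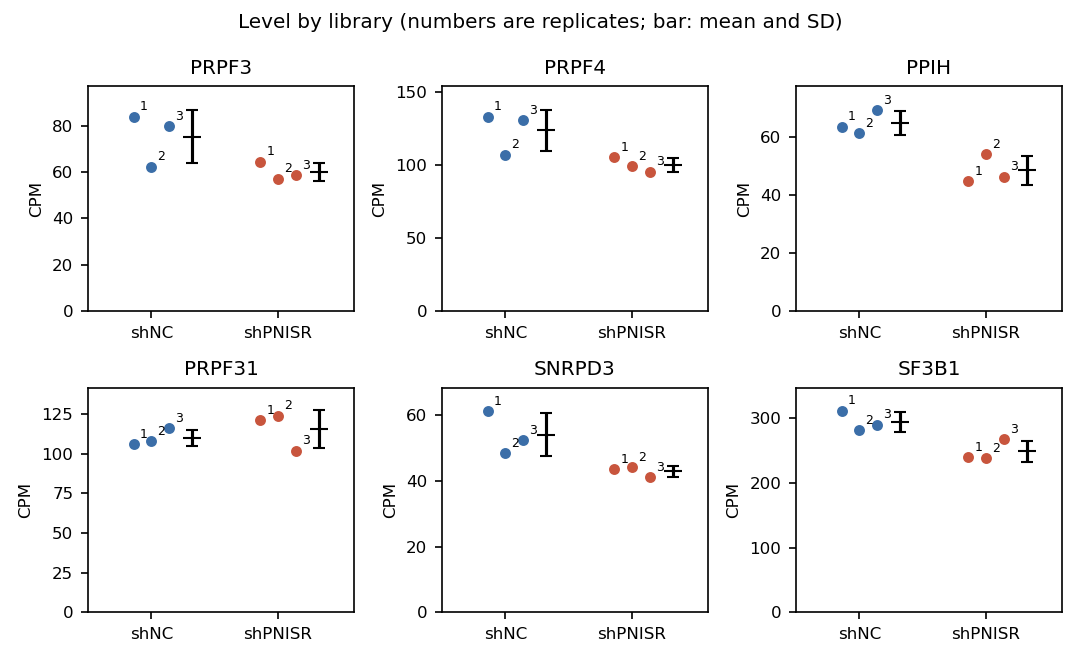
CPM (vertical axis, from 0) of PRPF3, PRPF4, PPIH, PRPF31, SNRPD3 and SF3B1 in each of the 6 libraries, with points numbered by replicate and bars for the mean and SD of each group. PRPF4, PPIH, SNRPD3 and SF3B1 have all 3 shPNISR points under all 3 shNC points, PRPF3 has shNC 2 inside the shPNISR range, and PRPF31 overlaps throughout.

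Without the library shNC 2, edgeR called PRPF3 (log2 fold change -0.45, adjusted p = 0.0141), PRPF4 (-0.41, 0.0190) and SNRPD3 (-0.41, 0.0328) lower, 7.50% of the set beside 4.52% of all tested genes lower in that comparison. PPIH, the cyclophilin that docks on PRPF4, was chosen after its values were seen: it was at 63.6, 61.3 and 69.3 CPM in shNC and 44.9, 54.2 and 46.4 CPM in shPNISR, without overlap. Its log2 fold change was -0.42 ± 0.12 (adjusted p = 0.0659, edgeR quasi-likelihood test), and in 5 of the 17 alternative settings it passed, with adjusted p from 0.0190 to 0.0360. PRPF4 (ENSG00000136875) lies at chr9:113275343-113292905 of GRCh38, plus strand, and shares exon bases with CDC26 on the other strand, whose level of 19.3 CPM in the controls stood beside 18.9 CPM with shPNISR (log2 fold change -0.03).

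No protein of the NTC core or its partners passed the test. PRPF19, the ubiquitin ligase of the complex, was at 331, 305 and 324 CPM in shNC and 350.2, 339.9 and 284 CPM in shPNISR (0.02 ± 0.11). CDC5L, a Myb-like protein, was at 103, 89.8 and 102 CPM in shNC and 83.8, 92.1 and 93.1 CPM in shPNISR (-0.13 ± 0.11), and its WD40 partner PLRG1 had -0.12 ± 0.11. The groups overlapped for all 3. Among the related proteins, AQR, the intron-binding helicase, was at 70.6, 68.6 and 64.3 CPM in shNC and 63.9, 53.1 and 61.5 CPM in shPNISR, without overlap (-0.19 ± 0.12, adjusted p = 0.418), and its log2 fold change was -0.01 with GC and length correction. XAB2, a helical-repeat scaffold, had the highest fold change of all 40, at 79.4, 95.7 and 78.3 CPM in shNC and 108, 94.3 and 90.5 CPM in shPNISR (0.21 ± 0.12, adjusted p = 0.376), with overlap. With GC and length correction it was 0.04, below SF3B2 at 0.14. That correction used the GC content of the longest transcript and the exon length over all transcripts. For SF3B2 these were 45.7% and 9795 bases, beside 55.7% and 2903 bases for its principal transcript. What this choice does to the order was not tested. CWC22, which hands the exon junction complex its EIF4A3, was at 25.2, 25.2 and 26.6 CPM in shNC and 17.7, 22.0 and 26.3 CPM in shPNISR (-0.22 ± 0.15). CRNKL1, another helical-repeat scaffold, and the zinc-binding BUD31 had -0.04 ± 0.11 and 0.05 ± 0.15. The adjusted p-values here are from edgeR's quasi-likelihood test with Benjamini-Hochberg adjustment.

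Libraries with lower U5 sums had higher Sm ring sums in shNC 3 and shPNISR 2. Most of the U5 sum was PRPF8 and SNRNP200, with means of 808 and 613 CPM in shNC. In shNC 3 and shPNISR 2 their log2 deviations from the shNC mean were -0.33 and -0.44 for PRPF8, and -0.33 and -0.32 for SNRNP200. The other U5 genes did not share this drop: -0.13 and -0.03 for EFTUD2, -0.03 and 0.04 for PRPF6, and 0.10 and 0.11 for SNRNP40. In the controls the summed CPM were 2183, 2199.5 and 1699 for U5 and 1205, 1158 and 1363 for Sm, a ratio of 1.81, 1.90 and 1.25. With shPNISR they were 2255, 1687 and 1829.8 for U5 and 1198, 1398 and 1105 for Sm, a ratio of 1.88, 1.21 and 1.66. The libraries shNC 3 and shPNISR 2 were low in this ratio, 1 from each group. The median transcript length was 4548 bases for the U5 proteins and 1154 bases for the Sm proteins. Single genes departed from this, with 1597 bases for SNRNP40 of U5 and 4909 for SNRPD1 of the Sm ring. Over 39 members without U2AF1, Pearson's r between a gene's deviation in a library and its log2 transcript length was 0.51, 0.62 and -0.45 in the 3 controls. It was 0.15, -0.77 and 0.26 with shPNISR. Genes of a library share its preparation and depth and are not independent. Over all 15989 tested genes with an annotated exon length, taken over all transcripts, the values were 0.22, 0.15 and -0.08, and -0.07, -0.32 and 0.11. With GC content the members' r was highest in shPNISR 1 at 0.75 and lowest in shNC 3 at -0.60, beside 0.44 and -0.27 over all genes. Across the same 39 members the log2 fold change had a Pearson's r of 0.61 (Spearman's rho 0.65) with GC content. With correction for GC and length, 17 members changed sign and 32 of 40 lay below 0. With that correction PRPF4, PRPF3 and SNRPD3 stayed below 0.

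**Figure D5:**
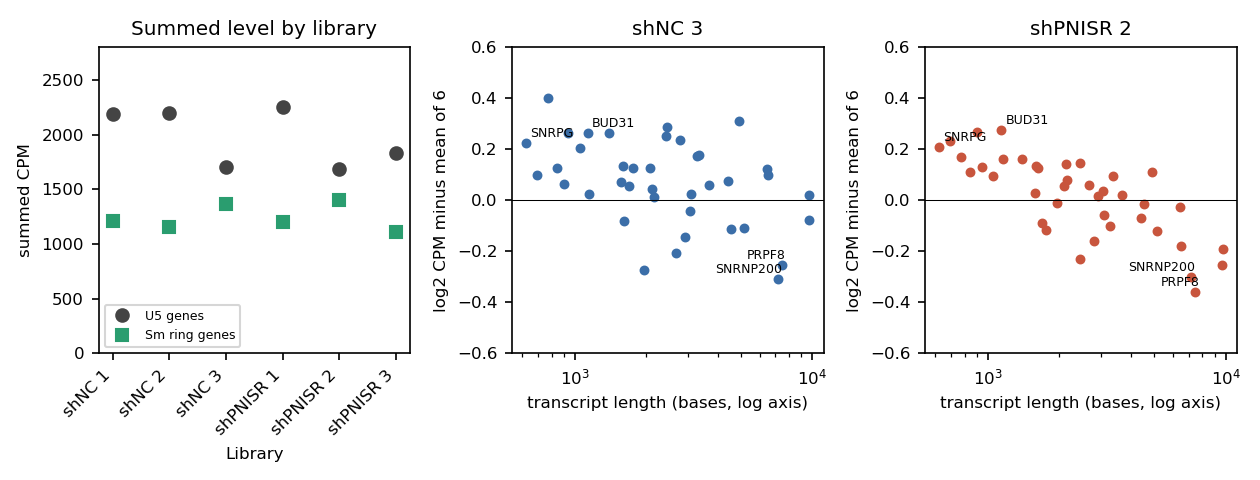
Left, summed CPM of the U5 and Sm ring genes in each of the 6 libraries. Middle and right, for 39 members, log2 CPM minus the gene's mean over 6 libraries against transcript length on a log axis. The libraries are shNC 3 and shPNISR 2, with the lowest U5 to Sm ratios (1.25 and 1.21). Pearson's r was -0.45 in shNC 3 and -0.77 in shPNISR 2. In both, PRPF8 lies below 0 and SNRPG above, but not every member follows its length: SNRPD1, of 4909 bases, lies above 0.

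Further spliceosome genes from a separate list gave no call. Of 100 tested, 0 passed in either direction (edgeR quasi-likelihood test, Benjamini-Hochberg threshold 0.05), and 3 were higher and 10 lower at an unadjusted p under 0.05, beside 9.98% and 7.79% of all tested genes. Of the 100, 69 had a fitted value below 0, beside 52.1% of all tested genes, and the median was -0.08, beside -0.01. Without the library shNC 2, 8 of the 100 were called lower and 0 higher, beside 4.52% of all tested genes lower: U2SURP, PPIH, PRPF38B, BCAS2, PRPF4B, GCFC2, PRPF39 and DDX20, named after their values were seen. PRPF4B, a kinase of the tri-snRNP, also passed with no low-count filter (log2 fold change -0.46, edgeR adjusted p = 0.0142). Their per-list medians were -0.14 for 13 U2-associated proteins, -0.01 for 20 tri-snRNP and LSm proteins, -0.10 for 38 activation and catalysis proteins, -0.06 for 13 minor-spliceosome proteins and -0.09 for 16 assembly factors. The 2 genes with the highest CPM of each list were DNAJC8 and DHX15, a helicase that recycles spliceosomes, at 271 and 261 CPM in shNC and 257 and 243 in shPNISR. LSM4, of the ring on U6 RNA, was at 244 ± 25.2 and 271 ± 23.8 CPM and DDX23, the helicase that acts at tri-snRNP entry, at 232 ± 19.8 and 219 ± 18.4. PRCC was at 148 ± 19.2 and 130 ± 9.58 and SMU1, a factor of spliceosome activation, at 138 ± 6.92 and 126 ± 8.26. The minor-spliceosome proteins SNRNP25 and SNRNP48 were at 94.3 and 68.0 CPM in shNC and 94.7 and 54.7 in shPNISR (SNRNP48 log2 fold change -0.31 ± 0.12, edgeR adjusted p = 0.181). PRMT5, which methylates Sm proteins, was at 272 ± 5.65 and 259.9 ± 25.9, and STRAP, a partner of the SMN complex that loads the ring, at 246 ± 27.9 and 248 ± 17.1.

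Counting limits touch some members. Of the 40, 14 share exon bases with a gene on the other strand and 2 with one on their own strand, and the sources used here do not give the strand setting, so reads of such partners cannot be told apart. For 9 members pseudogenes had counts, at most 7.92% of the member's own, for SNRPA1.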

How the data were processed

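RNA was sequenced from HCT-8 cells with shNC or shPNISR plasmid, 3 libraries each. The deposited values are whole-number read counts per Ensembl gene ID, not normalized. HISAT2 2.0.4 and GRCh38 are named per the submitters' processing notes; the sources used here do not give the counter, annotation release or strand setting. Genes were filtered with filterByExpr (minimum count 10, minimum total 15), scaled with TMM factors and tested with edgeR 4.0.16 (robust quasi-likelihood test, two-sided, Benjamini-Hochberg adjustment over all 16102 genes, threshold 0.05) in R 4.3.3, after a check on simulated data. Counts of replicate libraries differed beyond sampling noise, so all 6 were kept. Alternatives used DESeq2 1.42.0, limma 3.58.1 voom, other scalings and filters, loess correction for GC content and length (span 0.4), a replicate block and each library left out. The loess correction took GC content from the longest transcript and length from the exons of all transcripts. Positions, overlaps and transcript lengths came from GENCODE release 29; figures from matplotlib 3.10.9. Levels per kb use the APPRIS principal transcript. The members and lists were chosen with earlier results of these data known. Any member could be named, and from other lists the 2 highest in CPM where none passed.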

Additional observations from a re-analysis of the deposited data

How the results depend on the processing

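Across 17 alternatives no member was called higher, and members were called lower in 3: without shNC 2 (3), with the replicate block (1, of 118 genes called lower) and with GC and length correction plus that block (1). Leaving out 1 library at a time, genes called higher ranged from 133 to 1284 and lower from 30 to 746, the highest without shNC 2 and the lowest without shPNISR 1, members called lower from 0 to 3, and the median of the NTC-related proteins from -0.09 to -0.02. Genes called lower numbered 71 with library totals, 354 (with 642 higher) with no low-count filter, 226 with DESeq2 and 235 with GC and length correction plus block. With GC and length correction, medians were -0.11 for U1, -0.27 for the branch and 3′ site proteins and 0.00 for the NTC core, and with the block added -0.11, -0.27 and -0.00. That correction changed the sign of 17 members, none of them called: -0.18 for SNRNP70, -0.11 for SNRPA, -0.02 for SNRPC, -0.06 for SNRPB, -0.08 for SNRPD2, 0.02 for SNRPF, 0.01 for SNRPG, -0.09 for SF3A2, -0.00 for SF3B5, 0.05 for SNRNP40, -0.11 for PRPF6, -0.10 for PRPF31, -0.12 for PRPF19, 0.01 for CDC5L, 0.00 for PLRG1, 0.04 for CRNKL1, -0.07 for BUD31. With the block added, 15 changed sign: -0.18 for SNRNP70, -0.11 for SNRPA, -0.02 for SNRPC, -0.06 for SNRPB, -0.09 for SNRPD2, 0.01 for SNRPF, -0.10 for SF3A2, -0.00 for SF3B5, 0.03 for SNRNP40, -0.12 for PRPF6, -0.10 for PRPF31, -0.12 for PRPF19, 0.01 for CDC5L, 0.04 for CRNKL1, -0.07 for BUD31. Sign changes from leaving out a library gave these ranges: -0.01 to 0.06 for SNRNP70, -0.02 to 0.17 for SNRPA, -0.01 to 0.14 for SNRPC, -0.07 to 0.16 for SNRPD2, -0.14 to 0.07 for SNRPE, -0.19 to 0.04 for SNRPG, -0.24 to 0.00 for SNRPB2, -0.01 to 0.13 for SF3B2, -0.16 to 0.04 for SF3B4, -0.19 to 0.08 for SNRNP200, -0.10 to 0.04 for EFTUD2, -0.13 to 0.06 for SNRNP40, -0.04 to 0.11 for PRPF6, -0.03 to 0.11 for PRPF19, -0.09 to 0.20 for BUD31. PRPF3, PRPF4 and SNRPD3 stayed below 0 in all 17. The causes were not tested.

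The labels do not say whether replicate numbers pair the samples. After group means were removed, same-numbered libraries correlated at 0.12, -0.08 and -0.15, and the other pairs at -0.23 to 0.31. These values cannot show how the libraries were prepared. With the number as a replicate block, U2AF1 was called lower (log2 fold change -1.05, edgeR adjusted p = 0.0241), and it also was with GC and length correction plus the block (-0.93, adjusted p = 0.0365).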
